A study of Mus musculus with 11 samples.

Results

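The 8 genes described here encode enzymes with which phagocytes make itaconate, nitric oxide and superoxide, together with an enzyme that removes superoxide. They were chosen by name, with earlier results of these data known, as Acod1, Nos2, Gch1, Cybb, Cyba, Ncf1, Ncf4 and Sod2. All 8 were among the 17243 genes that passed the filter on low counts, of 52636 genes counted. Acod1 takes a carboxyl group from the citric acid cycle intermediate cis-aconitate to give itaconate, a metabolite of activated macrophages. Nos2 is the inducible nitric oxide synthase, and Gch1 makes the first committed step towards tetrahydrobiopterin, the cofactor that Nos2 needs. Cybb and Cyba form the membrane core of the phagocyte NADPH oxidase, which passes electrons from NADPH to oxygen, and Ncf1 and Ncf4 are cytosolic subunits that join it upon activation. Sod2 is the mitochondrial manganese superoxide dismutase. In macrophages and neutrophils, microbial products, TNF and interferons are known to induce several of these genes.

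RNA was sequenced from E15.5 livers of untreated mouse embryos on a C57BL/6N background, with 3 WT, 2 Tnfr1-/- (labelled Tnfr1 KO), 3 Casp8-/- Mlkl-/- (Casp8 Mlkl dKO) and 3 Casp8-/- Tnfr1-/- (Casp8 Tnfr1 dKO) livers. Caspase-8 cleaves components of the necroptosis machinery, MLKL executes necroptosis, and TNFR1 is a receptor for TNF, so the comparison asked how livers that lack caspase-8 and TNFR1 but keep MLKL differ from the 3 other genotypes. The alleles were germline, the Mlkl allele lacked exon 3, and the RNA was of the whole organ, in which blood is formed at this stage. Litters were not given in the labels, so the p values measure only the spread between these livers. The totals were 23129212 to 35819339 counts per liver.

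Casp8 transcripts were at 27.7 to 33.9 CPM (counts scaled to the TMM-adjusted library size) in the 5 livers with intact Casp8, at 7.82 to 10.2 CPM in Casp8-/- Mlkl-/- livers and at 11.5 to 21.9 CPM in Casp8-/- Tnfr1-/- livers. Mlkl was at 0.730 to 1.22 CPM in Casp8-/- Mlkl-/- livers. Tnfrsf1a, which encodes TNFR1, was at 49.8 and 50.5 CPM in Tnfr1-/- livers and at 76.9, 76.0 and 425 CPM in Casp8-/- Tnfr1-/- livers, against 47.1 to 53.4 CPM in WT, so its whole-gene count did not check the Tnfr1 genotype in either group. Its difference between Casp8-/- Tnfr1-/- and WT livers did not pass the test (log2 fold change 1.91 ± 0.593, edgeR adjusted p = 0.0896). Casp8-/- Tnfr1-/- replicate 3 stood apart. Its correlation of log2 CPM with other livers was 0.840 to 0.891, against at least 0.949 among the 10 others, and Xist was at 3409 CPM in it, against at most 0.570 CPM in the others. Genes of the Y chromosome had 109 counts in it, against 4161 to 7976 in the others. By these values it was the only female liver, so sex differed within its genotype. The part of sex in its values was not tested. This liver and Casp8-/- Mlkl-/- replicate 1 had the lowest TMM scaling factors, at 0.758 and 0.812, against 1.01 to 1.09 for the rest.

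Transcripts of 7 of the 8 genes were higher in Casp8-/- Tnfr1-/- livers than in WT livers, and none was lower (edgeR quasi-likelihood test, adjusted p under 0.05 over all genes tested). The exception was Sod2. In this comparison 5.1 percent of all genes tested were called higher. The 8 genes were chosen with earlier results of these data known, so shares over all genes are given only as a description. The median log2 fold change of the 8 genes was 2.09, against -0.00153 over all genes. Against Tnfr1-/- livers 4 of the 8 were called higher, where 2.05 percent of all genes were, and against Casp8-/- Mlkl-/- livers 3 were, where 1.54 percent of all genes were. At an unadjusted p under 0.05, 7 were higher in each of these 2 comparisons, and the medians were 1.94 and 1.41. Only Acod1 was called in all 3 comparisons in every fit run, including those that left out each liver in turn. All 3 comparisons share the Casp8-/- Tnfr1-/- livers. The counts moved when single livers were left out, as did those over all genes. Of all genes tested, 879 were called higher against WT with all livers, and 284 and 270 without WT replicate 2 or 3. Against Casp8-/- Mlkl-/- 265 were called higher with all livers, and 518 without its replicate 1. Of the 8 genes, 3 were called against WT without WT replicate 2 or 3, Acod1, Cybb and Ncf1. Without either Tnfr1-/- liver 1 gene was called against Tnfr1-/-, and 2 were without WT replicate 1 or 2. Against Casp8-/- Mlkl-/- 1 gene was called without any single WT or Tnfr1-/- liver or without Casp8-/- Mlkl-/- replicate 2 or 3, and 6 were without Casp8-/- Mlkl-/- replicate 1.

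For 7 genes, all but Sod2, each of the 3 Casp8-/- Tnfr1-/- livers lay above all 8 livers of the other genotypes, a pattern shown by 7.43 percent of all genes tested. An exact two-sided permutation test of mean log2 CPM, 3 livers against 8, gave p = 0.00606 for each of the 7. This is the smallest value that its 165 splits allow. With all 3 livers above all 8, their split has the highest mean by construction. The p value therefore restates the pattern and is not separate evidence. The test also treats the 8 livers of the other genotypes as interchangeable. For Gch1 the gap was narrow. In bulk RNA, more cells of a type and more RNA per cell cannot be told apart.

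**Figure D1:**
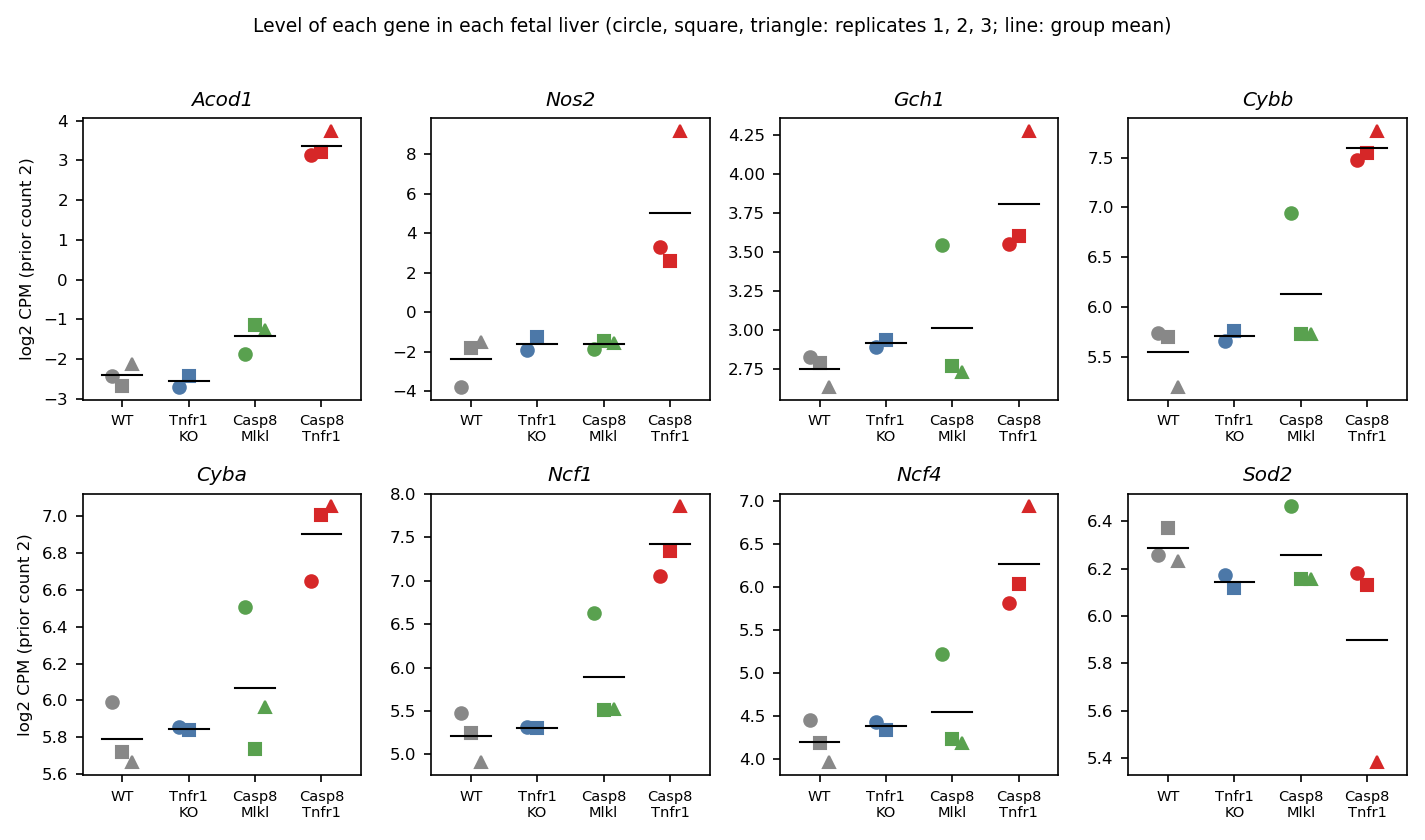
Log2 CPM (prior count 2) of each gene, on a scale of its own, in each of the 11 livers by genotype. Symbols are replicates 1, 2 and 3 and the line is the group mean. The 3 Casp8-/- Tnfr1-/- livers are above all others for every gene but Sod2, and replicate 3 is far above the rest for Nos2 and lowest for Sod2.

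**Figure D2:**
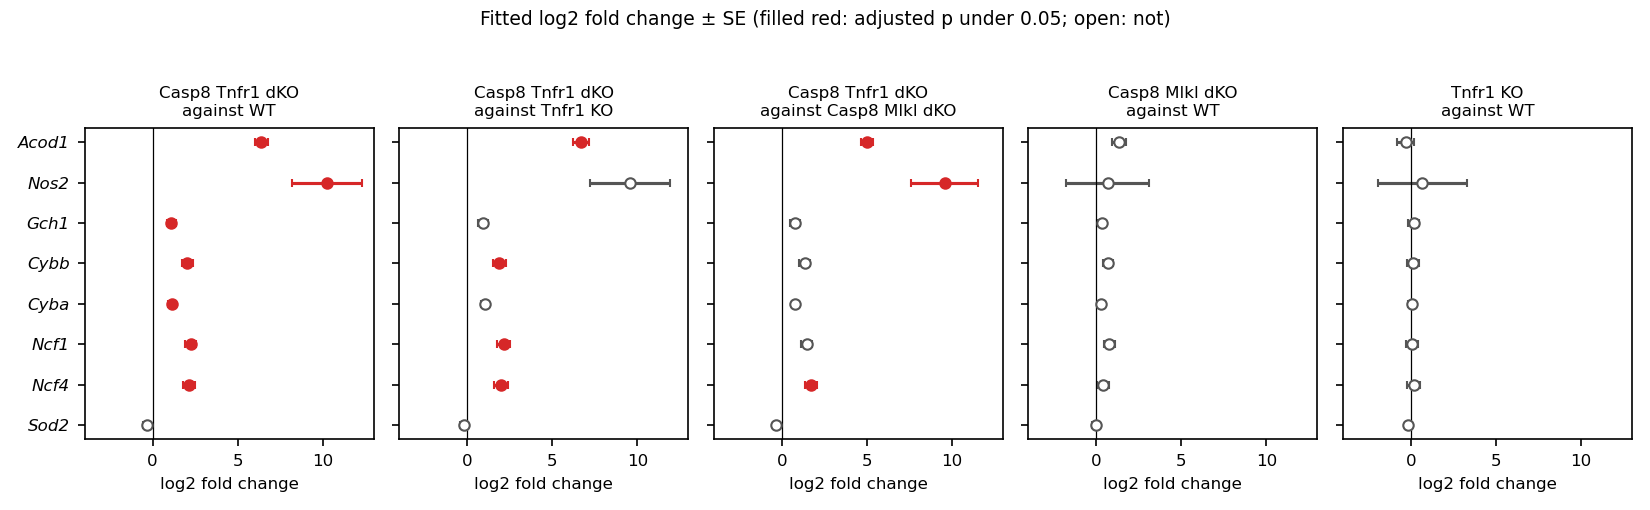
Fitted log2 fold change for the 8 genes in 5 comparisons (edgeR, all 11 livers in 1 fit). Bars are a standard error derived from the F statistic of the test. Filled red points have an adjusted p under 0.05. The comparisons with Casp8-/- Tnfr1-/- hold 7, 4 and 3 such genes, and the remaining panels hold none.

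Promoter sequences are shown for Acod1, for 2 oxidase genes and for Sod2, to set the letters in front of genes that rose beside those of the gene that did not. RefSeq promoters (GRCm38.p6) were matched to 6 of the 8 genes by symbol, all but Nos2 and Ncf4. Distances are from the RefSeq start. For Cybb and Sod2 the stretch shown lies inside the GENCODE gene whose position is given below. The 250 bases before each start were searched on both strands for the NF-kB consensus, by name, for the GAS element TTCNNNGAA, for the ISRE core GAAANNGAA and for the PU.1 core GAGGAA. Of 27025 promoters, these are found in 3.75, 7.18, 7.16 and 23.1 percent. The sequences run 5′ to 3′ along the gene, with bases in annotated exons left out, and capitals mark the matches.
Acod1, chr14:103046762-103046976, plus strand: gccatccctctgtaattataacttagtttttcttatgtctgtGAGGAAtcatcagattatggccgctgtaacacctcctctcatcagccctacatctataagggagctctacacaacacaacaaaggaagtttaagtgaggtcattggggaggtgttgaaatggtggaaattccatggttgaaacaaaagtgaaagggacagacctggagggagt
Cybb, chrX:9469325-9469574, minus strand: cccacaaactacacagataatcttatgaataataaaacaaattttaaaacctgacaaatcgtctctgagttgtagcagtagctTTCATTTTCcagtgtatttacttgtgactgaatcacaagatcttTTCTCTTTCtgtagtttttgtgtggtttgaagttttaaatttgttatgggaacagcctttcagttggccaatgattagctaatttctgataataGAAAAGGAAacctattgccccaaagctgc
Ncf1, chr5:134229626-134229875, minus strand: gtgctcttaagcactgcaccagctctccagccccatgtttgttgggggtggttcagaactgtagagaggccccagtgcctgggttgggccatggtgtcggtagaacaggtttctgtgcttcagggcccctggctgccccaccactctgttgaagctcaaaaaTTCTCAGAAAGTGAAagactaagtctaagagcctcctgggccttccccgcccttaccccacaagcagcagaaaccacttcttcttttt
Sod2, chr17:13007589-13007816, plus strand: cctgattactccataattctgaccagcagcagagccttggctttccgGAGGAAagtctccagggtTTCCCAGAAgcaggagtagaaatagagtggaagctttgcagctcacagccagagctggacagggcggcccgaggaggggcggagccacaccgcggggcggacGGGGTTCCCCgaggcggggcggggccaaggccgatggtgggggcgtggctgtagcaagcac

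Cybb held 3 ISRE cores, at 167 to 159, 123 to 115 and 29 to 21 bases before the start, the first and the second on the opposite strand. Ncf1 held a GAS element at 88 to 80 bases before its start, whose last 3 letters are also the first of an ISRE core at 82 to 74. Acod1 held only a PU.1 core, at 208 to 203. Sod2 held an NF-kB match at 83 to 74 that reads on both strands, a GAS element at 185 to 177 and a PU.1 core at 203 to 198. Gch1 held an NF-kB match in the 10 bases before its start, and Cyba held none of the 4. A match describes the letters only, and occupancy by a factor was not measured.

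Acod1 (ENSMUSG00000022126, GRCm38 chr14:103046977-103056573, plus strand) was close to undetected outside Casp8-/- Tnfr1-/- livers. The 3 WT livers held 3, 2 and 4 counts, the Tnfr1-/- livers 3 and 3, and the Casp8-/- Mlkl-/- livers 5, 13 and 9. The Casp8-/- Tnfr1-/- livers held 283, 267 and 233 counts, or 8.63, 9.19 and 13.3 CPM. No liver overlapped between this genotype and the others. The ratio of summed counts, scaled to library size, was 82.5 to WT (95% exact counting interval 43.2 to 181), 103 to Tnfr1-/- (47.3 to 283) and 31.1 to Casp8-/- Mlkl-/- (21.2 to 47.6). The intervals cover counting error only. The fitted log2 fold changes were 6.39 ± 0.387 (SE; edgeR adjusted p = 5.36e-05), 6.68 ± 0.469 (edgeR adjusted p = 0.000216) and 5.03 ± 0.348 (edgeR adjusted p = 0.000168).

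Acod1 was also the gene with the largest difference of the 8 between Casp8-/- Mlkl-/- and WT livers, at a log2 fold change of 1.35 ± 0.401. All 3 Casp8-/- Mlkl-/- livers, at 0.203 to 0.378 CPM, were above the WT range of 0.0838 to 0.158 CPM. The ratio of counts was 2.65 with a counting interval of 1.21 to 6.40. The difference did not pass the test over all genes (unadjusted p = 0.00727, edgeR adjusted p = 0.845), and over the alternative fits the adjusted p lay between 0.0482, with limma-voom and quality weights, and 1.

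Nos2 (ENSMUSG00000020826, chr11:78920787-78960254, plus strand) gave 0, 5 and 7 counts in WT livers, 7 and 9 in Tnfr1-/- livers and 5, 10 and 7 in Casp8-/- Mlkl-/- livers. In Casp8-/- Tnfr1-/- livers it gave 318, 172 and 10282 counts, which are 9.70, 5.92 and 586 CPM. Even the lowest of these was above every other liver, but replicate 3 held most of the counts. With all livers, its log2 fold change from WT was 10.25 ± 2.07 (edgeR adjusted p = 0.0198), and it was 5.58 ± 0.602 without replicate 3 (edgeR adjusted p = 0.000666). Against Casp8-/- Mlkl-/- it was 9.58 ± 1.97 (edgeR adjusted p = 0.0443) and 4.91 ± 0.561 without that liver (edgeR adjusted p = 0.00199). Against Tnfr1-/- it missed the threshold with all livers, at 9.57 ± 2.37 (edgeR adjusted p = 0.0788), and passed without replicate 3, at 4.89 ± 0.657 (edgeR adjusted p = 0.0033). limma-voom without weights did not call Nos2 against WT (8.01 ± 4.33, adjusted p = 0.299), and leaving out any 1 WT liver also ended that call, with an adjusted p of up to 0.105. DESeq2 gave no adjusted p for Nos2. The call against Casp8-/- Mlkl-/- was lost when any 1 of the 8 livers of the other genotypes was left out, with an adjusted p of up to 0.197.

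Gch1 (ENSMUSG00000037580, chr14:47153895-47189413, minus strand) was expressed in every liver. It was at 7.03, 6.83 and 6.15 CPM in WT livers, at 7.36 and 7.60 in Tnfr1-/- livers and at 11.6, 6.74 and 6.57 in Casp8-/- Mlkl-/- livers. Casp8-/- Tnfr1-/- livers were at 11.6, 12.0 and 19.3 CPM, the lowest of which, at 11.62, lay just above Casp8-/- Mlkl-/- replicate 1 at 11.59. Relative to WT, Gch1 rose by a log2 value of 1.10 ± 0.274 (edgeR adjusted p = 0.0463). Leaving out 1 liver at a time ended this call in 8 of 11 cases (any WT or Tnfr1-/- liver, Casp8-/- Mlkl-/- replicate 2 or 3, or Casp8-/- Tnfr1-/- replicate 3), with an adjusted p of up to 0.177. The differences from Tnfr1-/- livers, 0.93 ± 0.310 (edgeR adjusted p = 0.179), and from Casp8-/- Mlkl-/- livers, 0.78 ± 0.271 (edgeR adjusted p = 0.219), did not pass the test.

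The 4 genes of the phagocyte NADPH oxidase all rose against WT, by a log2 fold change of 2.04 to 2.23 for Cybb, Ncf1 and Ncf4 and of 1.12 for Cyba, and the difference between these genes was not tested. Cybb (ENSMUSG00000015340, chrX:9435252-9487771, minus strand), the catalytic subunit, was at 53.5, 51.9 and 36.7 CPM in WT livers and at 50.3 and 54.0 in Tnfr1-/- livers. It was at 123, 53.1 and 53.0 CPM in Casp8-/- Mlkl-/- livers and at 178, 187 and 218 in Casp8-/- Tnfr1-/- livers. Its log2 fold changes for Casp8-/- Tnfr1-/- were 2.04 ± 0.320 against WT (edgeR adjusted p = 0.0065) and 1.90 ± 0.370 against Tnfr1-/- (edgeR adjusted p = 0.0295). Against Casp8-/- Mlkl-/- it was 1.35 ± 0.313 (edgeR adjusted p = 0.0715). The call against Tnfr1-/- was lost without WT replicate 1 or 2, either Tnfr1-/- liver or Casp8-/- Tnfr1-/- replicate 2, with an adjusted p of up to 0.393.

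Cyba (ENSMUSG00000006519, chr8:122424776-122432930, minus strand) encodes the partner that stabilises the Cybb protein. Its transcripts were at 63.6, 52.6 and 50.6 CPM in WT, 57.8 and 57.1 in Tnfr1-/-, 90.7, 53.2 and 62.4 in Casp8-/- Mlkl-/- and 100.4, 129 and 133 in Casp8-/- Tnfr1-/- livers. The Casp8-/- Tnfr1-/- values were the highest, with Casp8-/- Mlkl-/- replicate 1 next. The log2 fold change was 1.12 ± 0.207 against WT (edgeR adjusted p = 0.0133), 1.07 ± 0.236 against Tnfr1-/- (edgeR adjusted p = 0.0507) and 0.81 ± 0.206 against Casp8-/- Mlkl-/- (edgeR adjusted p = 0.0954). Without WT replicate 2 or 3 the call against WT was lost, with an adjusted p of up to 0.081.

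Ncf1 (ENSMUSG00000015950, chr5:134220053-134229625, minus strand) encodes the organiser subunit, whose phosphorylation starts assembly of the enzyme. It was at 44.4, 37.9 and 30.0 CPM in WT, 39.7 and 39.4 in Tnfr1-/-, 98.6, 45.5 and 45.9 in Casp8-/- Mlkl-/- and 132, 163 and 232 in Casp8-/- Tnfr1-/- livers. It had the largest fold change of the 4 oxidase genes against WT, at a log2 value of 2.23 ± 0.334 (edgeR adjusted p = 0.00537), and was at 2.15 ± 0.388 against Tnfr1-/- (edgeR adjusted p = 0.022). Against Casp8-/- Mlkl-/- the value was 1.47 ± 0.326 (edgeR adjusted p = 0.0592). Without either Tnfr1-/- liver the call against that genotype was lost, with an adjusted p of up to 0.324. Of the exon bases of Ncf1, 408 are shared with Gtf2ird2 on the opposite strand, which had 2558 counts in all livers together, and whether counting used strand is not given in the sources used here.

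Ncf4 (ENSMUSG00000071715, chr15:78244801-78262580, plus strand) encodes a subunit that binds a phosphoinositide on phagosomes. It was at 21.8, 18.1 and 15.46 CPM in WT, 21.4 and 20.1 in Tnfr1-/-, 37.1, 18.6 and 18.04 in Casp8-/- Mlkl-/- and 56.3, 65.7 and 123 in Casp8-/- Tnfr1-/- livers. It was the only oxidase gene of the 4 called in all 3 comparisons, with log2 fold changes of 2.14 ± 0.359 against WT (edgeR adjusted p = 0.00853), 1.97 ± 0.414 against Tnfr1-/- (edgeR adjusted p = 0.0407) and 1.73 ± 0.353 against Casp8-/- Mlkl-/- (edgeR adjusted p = 0.0437). The latter 2 calls were each lost in 8 of 11 fits with 1 liver left out (any WT or Tnfr1-/- liver, Casp8-/- Mlkl-/- replicate 2 or 3, or Casp8-/- Tnfr1-/- replicate 2), with adjusted p up to 0.422 and 0.186. The call against WT was lost without WT replicate 2 or 3, with an adjusted p of up to 0.0571.

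Within the Casp8-/- Mlkl-/- group, replicate 1 was 1.45 to 2.32 times the 2 others for Gch1 and all 4 oxidase genes, while replicates 2 and 3 were at or near the control level. Without this liver 6 of the 8 genes were called higher in Casp8-/- Tnfr1-/- than in Casp8-/- Mlkl-/- livers. Calls also rose over all genes, from 265 higher of 17243 tested to 518 of 17081. The log2 fold changes became 1.88 for Cybb (edgeR adjusted p = 0.00165), 1.06 for Cyba (edgeR adjusted p = 0.0133) and 1.95 for Ncf1 (edgeR adjusted p = 0.0061). The same liver was also the highest of its group in summed macrophage markers (1909 CPM, against 821 and 883) and summed neutrophil markers (3536 CPM, against 1352 and 1491). It stood apart in other cell types as well, with hepatocyte markers at 236653 CPM, against 52592 and 63519, and lymphoid markers at 43.3 CPM, against 6.89 and 7.03. The part of these markers in its oxidase values was not tested.

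Sod2 (ENSMUSG00000006818, chr17:13006846-13040063, plus strand) was the one gene of the 8 that was not called higher. It was at 76.5, 82.6 and 75.1 CPM in WT, 72.0 and 69.4 in Tnfr1-/-, 88.1, 71.3 and 71.3 in Casp8-/- Mlkl-/- and 72.5, 69.9 and 41.7 in Casp8-/- Tnfr1-/- livers. Replicate 3 was the lowest of all livers and the other two lay within the range of the other genotypes. Relative to WT its log2 fold change was -0.35 ± 0.20 (edgeR adjusted p = 0.301), and against Tnfr1-/- and Casp8-/- Mlkl-/- it was -0.20 ± 0.222 and -0.32 ± 0.20 (edgeR adjusted p = 0.651 and 0.462). The exact permutation test of 3 livers against 8 gave p = 0.0545. Without replicate 3 the value against WT was -0.13. Of 10012 stretches of 50 bases in Sod2 transcripts, 2107 also occur in transcripts of other annotated genes, of which AC166110.4 shares the most. Reads there may not have counted as unique.

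Between the genotypes that stayed low, none of the 8 genes passed the test. In Casp8-/- Mlkl-/- against WT, 2 genes had an unadjusted p under 0.05, Acod1 and Ncf1 (log2 fold change 0.76 ± 0.322, edgeR adjusted p = 0.875), and the median of the 8 was 0.54, against 0.03 over all genes. Of all genes tested, 0.0058 percent were called in this comparison. DESeq2 and limma-voom also called none of the 8. In Tnfr1-/- against WT no gene of the 8 had an unadjusted p under 0.05, their median was 0.11, and 0 percent of all genes were called.

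Per kilobase of gene model, the order of the levels in WT livers was Cyba (74.8 ± 9.40 CPM per kilobase, SD, n = 3), Sod2 (20.4 ± 1.04), Ncf1 (12.99 ± 2.51), Ncf4 (12.6 ± 2.18), Cybb (9.97 ± 1.95), Gch1 (2.40 ± 0.165), Acod1 (0.0453 ± 0.0141) and Nos2 (0.0377 ± 0.0335). The ranges of Ncf1, Ncf4 and Cybb overlapped, as did those of Acod1 and Nos2. In Casp8-/- Tnfr1-/- livers Cyba was still the highest (162 ± 23.7), followed by Ncf1 (61.0 ± 17.7), Ncf4 (55.7 ± 24.6), Nos2 (46.7 ± 77.7) and Cybb (40.9 ± 4.38). Sod2 (16.05 ± 4.48), Gch1 (5.16 ± 1.55) and Acod1 (3.95 ± 0.967) came last. Nos2 could not be placed, since it was at 2.26 and 1.38 CPM per kilobase in replicates 1 and 2 and at 136 in replicate 3. The ranges of Ncf1 and Ncf4 overlapped with each other, and Ncf4 with Cybb. In each of the 3 livers the level of Acod1 per length stayed below that of Gch1 and of the 4 oxidase genes.

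**Figure D3:**
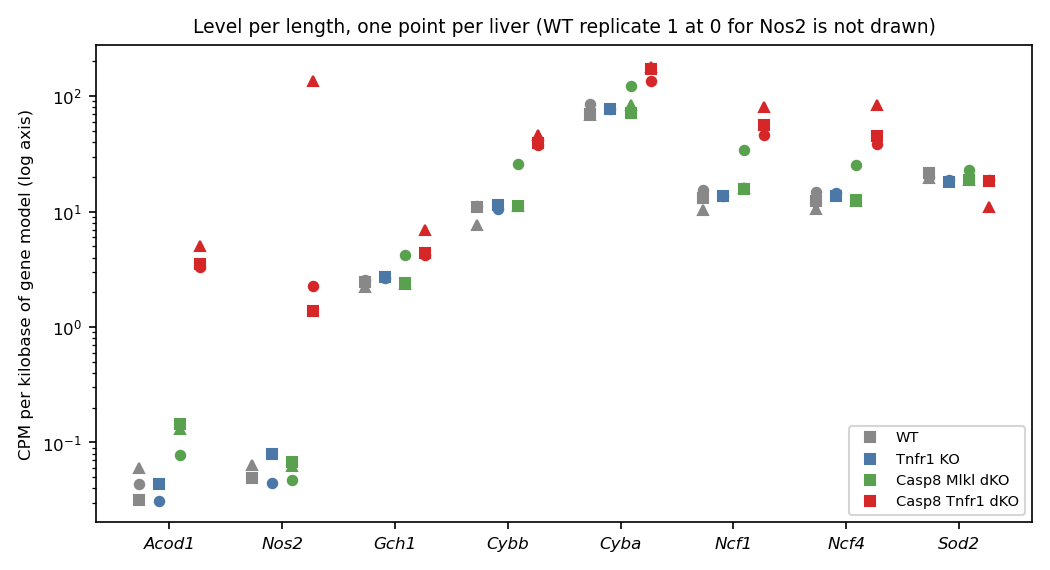
CPM per kilobase of gene model on a log axis for the 8 genes, with 1 point per liver, coloured by genotype and shaped by replicate. Acod1 and Nos2 are below 0.2 in all controls, and the Nos2 value of WT replicate 1, which is 0, is not drawn.

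The genes whose profile over the 11 livers was most like that of each of the 8 were found by the root mean square difference of log2 CPM centred on each gene's mean, as a description. For Acod1 they were the chemokine genes Ccl2 (0.36) and Ccl7 (0.59) and the nucleic acid sensor gene Zbp1 (0.58). For Cybb they were Irf1 (0.14), Ncf1 (0.15) and Tgfbi (0.15), and for Ncf1 they were H2-D1 (0.14), Tgfbi (0.15) and Cybb (0.15). For Ncf4 they were the leukocyte integrin gene Itgb2 (0.13), Sorl1 (0.14) and Ltb4r1 (0.14), and for Cyba they were Tmem176b (0.11), Hk3 (0.12) and Chst12 (0.12). For Gch1 they were Lrrfip1 (0.07), Il1rl2 (0.10) and Sema4c (0.10), and for Sod2 they were the mitochondrial chaperone gene Hspa9 (0.06), Tmem70 (0.07) and Lap3 (0.07). Nos2 had no close match, with Cxcl2 (1.10), Fgf23 (1.11) and Rgs4 (1.12) the nearest.

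Of 70 other genes tested from 6 lists around these pathways, 14 were called higher and 0 lower in Casp8-/- Tnfr1-/- than in WT livers by edgeR, where 5.1 and 0.702 percent of all genes were. At an unadjusted p under 0.05, 20 were higher and 10 lower. Without WT replicate 1, 2 or 3, 8, 5 and 5 were called higher, without Casp8-/- Mlkl-/- replicate 1 or Casp8-/- Tnfr1-/- replicate 3, 3 and 6 were called lower, and DESeq2 called 3 lower. Of 6 other genes of the phagocyte oxidase, 2 were called higher by edgeR against WT, the other 4 did not pass, and the median log2 fold change of the 6 was 0.47. The haematopoietic GTPase gene Rac2 rose by 0.82 ± 0.120 (edgeR adjusted p = 0.00479). Of 9 genes of other NADPH oxidases 4 were tested, and 1 was called. This was Nox1, an epithelial oxidase, at 0.482 to 0.513 CPM against at most 0.0394 CPM in WT (edgeR adjusted p = 0.0324). Noxa1, which activates Nox1, was at 0.513 to 18.9 CPM against 0.592 to 1.38 CPM in WT and did not pass (edgeR adjusted p = 0.0635). The 9 genes summed to 22.0, 20.8 and 3.08 CPM in Casp8-/- Tnfr1-/- replicates 1, 2 and 3, against at most 4.04 CPM in other livers, so replicate 3 was not above them. The median log2 fold change of the 4 tested was 2.37.

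The genes that share substrates with Nos2 and Gch1 mostly did not pass the test. Of 15 tested of 16 genes of nitric oxide, tetrahydrobiopterin and arginine metabolism, 1 rose, and the median log2 fold change was -0.07. It was the mitochondrial arginase gene Arg2, at 0.895 to 30.9 CPM against 0.0789 to 0.154 CPM in WT (log2 fold change 6.63 ± 1.62, edgeR adjusted p = 0.0426), and without Casp8-/- Tnfr1-/- replicate 3 no gene of this list was called. Of 11 genes of citrate, aconitate and itaconate metabolism, which stand next to Acod1, edgeR called 0, as did DESeq2 and limma-voom, and 2 were lower at an unadjusted p under 0.05. Their median was -0.31. Of 22 other antioxidant genes, 2 rose and none was called lower, with a median of -0.07. These were Slc7a11, the cystine importer that feeds glutathione synthesis (2.76 ± 0.404, edgeR adjusted p = 0.00473), and the glutathione reductase gene Gsr (0.62 ± 0.144, edgeR adjusted p = 0.0349).

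Of 13 genes of cytokines, receptors and factors known to induce Nos2 or Acod1, 12 were tested. Against WT 8 of them rose, with a median log2 fold change of 0.998, while 6 were called higher against Tnfr1-/- livers (median 0.904) and 2 against Casp8-/- Mlkl-/- livers (median 0.762). Among those that rose against WT were Il1b at 4.25 ± 0.651 (edgeR adjusted p = 0.00586), Tnf at 2.69 ± 0.546 (edgeR adjusted p = 0.0203) and Irf1 at 1.89 ± 0.325 (edgeR adjusted p = 0.00966). The Casp8-/- Tnfr1-/- livers lack TNFR1, a receptor for TNF. The list also holds Tnfrsf1a, whose count did not check the Tnfr1 genotype. The part of these genes in the levels of Nos2 and Acod1 was not tested. Ifng was at no more than 0.0915 CPM in any Casp8-/- Tnfr1-/- liver and was not tested. Against Tnfr1-/- and Casp8-/- Mlkl-/- livers, 8 and 5 of the 70 genes were called higher, where 2.05 and 1.54 percent of all genes were, and 0 were called lower, with 2 lower at an unadjusted p under 0.05 in each.

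**Figure D4:**
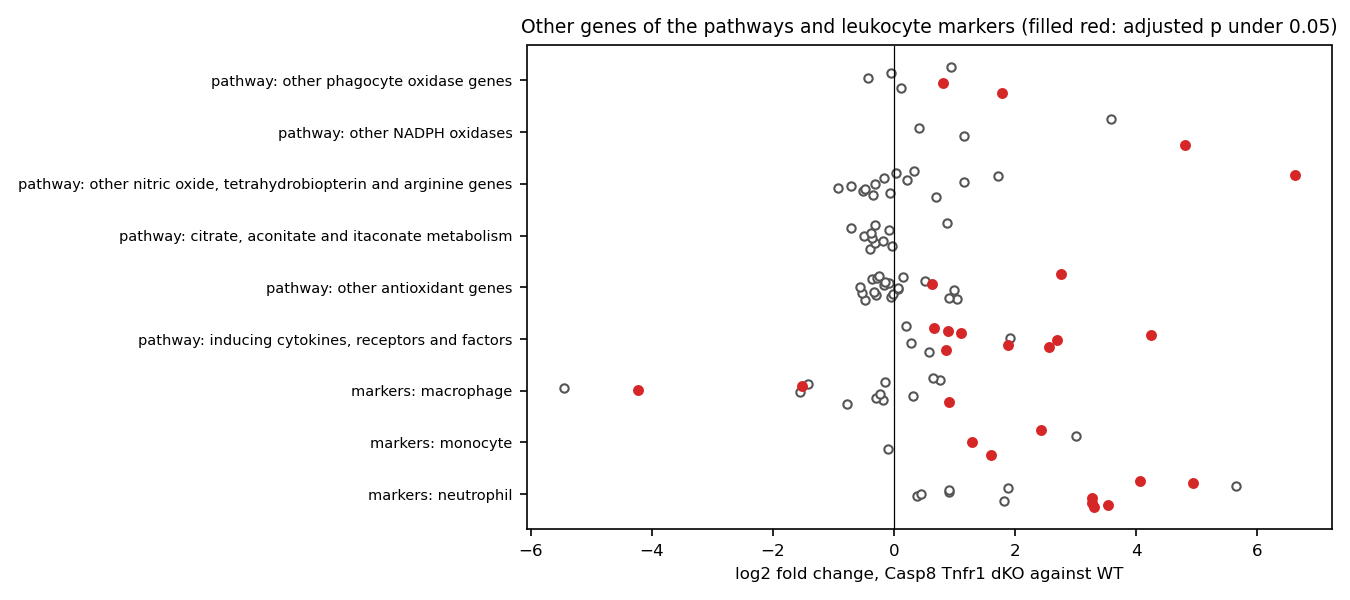
Log2 fold change in Casp8-/- Tnfr1-/- against WT for the genes tested in 6 pathway lists and in the macrophage, monocyte and neutrophil marker lists, with 1 point per gene. Filled red points have an adjusted p under 0.05, and they include 8 inducing genes and 6 neutrophil markers, all higher.

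Markers of the cells that carry these enzymes moved with the 7 genes in part. Of 13 neutrophil markers 6 were called higher and none lower in Casp8-/- Tnfr1-/- than in WT livers, where 5.1 and 0.702 percent of all genes were. The median log2 fold change of the 13 markers was 3.27. Their summed level was 5437, 6715 and 15414 CPM in Casp8-/- Tnfr1-/- replicates 1, 2 and 3, against 1164 to 1688 in WT, 1398 to 1432 in Tnfr1-/- livers and 1352 to 3536 in those of Casp8-/- Mlkl-/- embryos. The most abundant were S100a9 (3.53), Ngp (3.27) and S100a8 (3.31), all called. The summed level of the 4 oxidase genes ran in the same order within this genotype, at 467, 544 and 705 CPM. So did that of the monocyte markers, at 147, 161 and 200 CPM. That of the macrophage markers ran in the opposite order, at 728, 669 and 378 CPM. Of 5 monocyte markers 3 were called higher, and their summed level was 147 to 200 CPM against 49.9 to 94.02 in WT and 69.6 to 134 in Casp8-/- Mlkl-/- livers. Macrophage markers went in both directions. Of 14, Cd68 was called higher (0.90) and Clec4f (-4.23) and Marco (-1.51) lower, and the summed level was 378 to 728 CPM against 599 to 783 in WT and 821 to 1909 in Casp8-/- Mlkl-/- livers. Fewer markers passed against the other genotypes. Of the neutrophil markers edgeR called 1 against Tnfr1-/- and 0 against Casp8-/- Mlkl-/- livers, where 8 were higher at an unadjusted p under 0.05 in each, DESeq2 called 7 and 5, and limma-voom called 2 in each. The medians were 3.25 and 2.22. Of the monocyte markers edgeR called 0 in both comparisons, with 3 higher at an unadjusted p under 0.05 in each, while DESeq2 called 2 and 3 and limma-voom 1 and 0. Of the macrophage markers 3 were called lower against Casp8-/- Mlkl-/- livers (median -1.24), and against Tnfr1-/- livers edgeR called 0, with 1 higher and 5 lower at an unadjusted p under 0.05, DESeq2 called 1 higher and 2 lower, and limma-voom called 1 lower. The part of these cells in the 7 genes was not tested.

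Of the other marker lists, the endothelial one had 1 of 8 genes called higher against WT (Pecam1, 1.30), where 5.1 percent of all genes were. With 8 genes, 1 call cannot be set apart from that share. The summed level of the endothelial list was 417 to 754 CPM against 404 to 455 in WT. None of 9 erythroid, 10 hepatocyte, 9 striated muscle, 5 lymphoid and 5 megakaryocyte markers tested was called by edgeR. At an unadjusted p under 0.05 all 9 muscle markers were higher, and of the rest 2 were higher and 2 lower. Alb and Afp, which define the hepatic lineage, and the globin gene Hbb-bt were present in every liver. Striated muscle markers summed to 1750 CPM in Casp8-/- Tnfr1-/- replicate 3, against 15.2 to 36.9 CPM in all other livers. Erythroid markers summed to 74929 CPM in it, against 24574 to 39293 in all others, and hepatocyte markers to 112358 CPM, against 59659 and 58610 in the other 2 livers of its genotype. This is the liver with the highest Nos2 and the lowest Sod2, and the part of other tissue in its values was not tested.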

How the data were processed

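Whole fetal livers were sequenced as single-end 50-base reads. The authors aligned them with GSNAP (named in the submitters' processing notes) to GRCm38 and kept uniquely mapped reads; the counting tool, its strand setting and the annotation release are not given in the sources used here. The labels and the study's methods name different library kits and sequencers. The deposited counts are raw reads per gene. The authors also deposited RPKM, in which each count is divided by gene width and a read total. RPKM was used only to recover that total.

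Names and positions came from GENCODE release M21. Groups came from the genotype labels. Genes were filtered by filterByExpr (minimum count 10), scaled by TMM and fitted with edgeR 4.0.16 (quasi-likelihood, R 4.3.3), the 4 genotypes in 1 fit, with Benjamini-Hochberg adjustment over all genes tested and a threshold of 0.05. DESeq2 1.42.0, limma 3.58.1, other filters and scalings, a replicate block and leaving out each liver were alternatives. The SE printed with edgeR values is the absolute log2 fold change divided by the square root of the F statistic of the test. It is rough where a group is near 0 counts, as for Nos2. CPM use TMM-scaled totals. CPM per kilobase divides by the deposited gene width. Low counts have exact 95% counting intervals. These use counts summed over the livers of a group, so they cover counting error alone and not the spread between livers. Reads carried no molecular identifiers. Scripts were tested on simulated data. The ISRE core searched in promoters was shortened by 1 letter after a longer form had been searched.

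All 8 genes are named. From each pathway list, genes called against WT are named, up to the 4 with the largest change (2 of these are not reported here), and from each marker list up to the 3 most abundant or those called. The 3 nearest profiles per gene are named. The genes and lists were chosen with earlier results of these data known.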

Additional observations from a re-analysis of the deposited data

How the results depend on the processing

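All 7 genes above the other 8 livers stayed so with DESeq2 size factors and with hemoglobin genes left out of library sizes. They also did with a smaller prior count and without each liver in turn. Leaving out a liver can undo this pattern only through scaling, and the other fits were not checked for it. Called changes kept their direction in all fits. The number called against Tnfr1-/- (4) was 7 with quality weights, 2 with only the 2 genotypes compared and 7 without the 2 livers with the lowest TMM factors. Against Casp8-/- Mlkl-/- (3) it was 5 with DESeq2, 7 with quality weights, 5 without a filter, 1 with only 2 genotypes and 7 without those 2 livers. In Casp8-/- Mlkl-/- against WT (0) it was 1 with quality weights, Acod1. With 1 liver left out, the numbers were 3 to 7 against WT, 1 to 6 against Tnfr1-/- and 1 to 6 against Casp8-/- Mlkl-/-, and the 70 pathway genes gave 5 to 16 higher and 0 to 6 lower. Those genes (14 higher, 0 lower) gave 24 and 16 with quality weights, 23 and 17 without the 2 livers, 8 higher with only 2 genotypes and 3 lower with DESeq2. Over all genes, 879 higher and 121 lower against WT became 1775 and 589 with DESeq2, 2934 and 2345 with quality weights, 3017 and 2297 without the 2 livers and 451 and 35 with only 2 genotypes. Against Tnfr1-/-, 353 higher became 2511 with quality weights, 53 with only 2 genotypes and 2354 without the 2 livers. Against Casp8-/- Mlkl-/-, 265 higher became 785 with DESeq2, 1894 with quality weights and 390 without a filter. They became 10 with only 2 genotypes and 2032 without the 2 livers. In Casp8-/- Mlkl-/- against WT, 1 higher and 0 lower became 551 and 491 with quality weights. The cause of these shifts was not tested.

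Signs turned only in differences that were not called. Sod2 was at 0.0054 with quality weights, 0.0115 without Casp8-/- Tnfr1-/- replicate 3 and 0.0263 without the 2 livers against Tnfr1-/-, and at 0.0111 without them against Casp8-/- Mlkl-/-. With 1 liver left out it ranged from -0.3387 to 0.0115 against Tnfr1-/-. In Casp8-/- Mlkl-/- against WT, Gch1 was at -0.0046 with quality weights and -0.0014 without Casp8-/- Mlkl-/- replicate 1, Ncf4 was at -0.0135, -0.0087 and -0.0075 in these fits and without the 2 livers, and Sod2 was at 0.0127, 0.0232 and 0.0237 without WT replicate 2, Casp8-/- Mlkl-/- replicate 2 and replicate 3. With 1 liver left out the ranges there were -0.0014 to 0.4497 for Gch1, -0.0087 to 0.5848 for Ncf4 and -0.1289 to 0.0237 for Sod2. Without WT replicate 3, Tnfr1-/- against WT gave -0.0095 for Cybb, -0.0112 for Cyba and -0.052 for Ncf1, and their highest values with 1 liver left out were 0.2406, 0.1579 and 0.2252.

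Genotypes share replicate numbers, but only 5 of 15 same-numbered pairs deviated together by a correlation over 0.1 (-0.297 to 0.275), and for 6 of 11 livers the closest liver of another genotype had the same number, so the numbers were not taken as pairs. With the replicate block, 1 of the 8 genes was called against Tnfr1-/- and 1 against Casp8-/- Mlkl-/-, where 182 and 130 of all genes were higher. Against WT 532 of all genes were higher and 40 lower.

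Acod1 had 2 to 13 counts in each control liver, so its ratio of 2.65 between Casp8-/- Mlkl-/- and WT livers had a counting interval of 1.21 to 6.40.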
